A study of Mus musculus with 2 samples.

Results

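Kruppel-like factors are transcription factors with 3 C-terminal zinc fingers that bind GC-rich and CACCC sequences. They are usually split by the partners of their other domains. Klf2, Klf4, Klf6 and Klf7 are mostly activators, Klf3 recruits the corepressor CtBP, and Klf9, Klf10, Klf11 and Klf13 recruit the corepressor Sin3. In macrophages Klf2 and Klf4 are known as restraints on inflammatory activation, Klf6 as a promoter of it, and Klf10 and Klf11 as factors of the TGF-beta response. The 9 genes named here were taken by symbol from a list chosen with earlier results of these data known, out of 55536 annotated genes, 22028 of them protein-coding. All 9 were found in every expression table.

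The RNA was total RNA depleted of ribosomal RNA, from the nucleoplasmic fraction of primary bone marrow-derived macrophages of strain C57BL/6J. All cells had received lipid A, the part of bacterial lipopolysaccharide that TLR4 recognises, at 100 ng/ml for 25 min. The labels give no age or sex, name the fraction once as nucleoplasmic and once as nuclear, and list 1 donor entry for both biological replicates. The SDs therefore measure the spread between 2 libraries and may be partly technical. With 1 group there was no test between conditions and no p-value, and untreated cells, other times and whole cells were not analysed here, so the values are levels and not responses to lipid A.

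The gene tables held 13506878 and 17932304 counts on annotated genes in replicates 1 and 2, with each estimated count rounded to a whole number. Library preparation started from 500 ng of RNA in replicate 1 and 1 µg in replicate 2, and whether this bears on any difference between them was not tested. All 10 macrophage markers examined were detected at a level of at least 1 TPM in both libraries, led by the lysozyme gene Lyz2 at 1648 ± 85.0 TPM (SD, n = 2). TPM is the estimated count per effective transcript length, scaled to a total of 1e+06. Of 37 markers of other cells, 5 were detected. They were Pf4 of megakaryocytes at 59.3 ± 15.5 TPM, Cd4 of T cells at 26.6 ± 4.07, Kdr of endothelium at 4.70 ± 0.799, and S100a9 and Ngp of neutrophils at 1.65 ± 0.0990 and 1.13 ± 0.0566. Endothelial cells are a known source of Klf2 and Klf4. Their 4 markers summed to 5.63 and 4.18 TPM in replicates 1 and 2, of which Kdr made up 5.26 and 4.13, while Tek, Cdh5 and Emcn, named outside the naming rule as the rest of that list, had at most 0.200 TPM in either. The lists of B cells, dendritic cells, mast cells and fibroblasts had 0 detected members, and their highest were Cd79b at 0.570 ± 0.0424 TPM, Zbtb46 at 0.870 ± 0.481, Kit at 1.58 ± 1.39 and Dcn at 1.36 ± 1.92. Fewer cells of a type and less RNA per cell cannot be told apart in such bulk samples.

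The zinc fingers are what the 9 genes share. A search of the longest coding transcript of each for the C2H2 finger pattern found 3 fingers in a region of 243 coding bases in all 9. Identity of this region between members ran from 57.2% to 81.1% over 36 pairs, with a median of 64.4%. Klf6 and Klf7 were the closest pair at 81.1%, followed by Klf2 and Klf4 at 78.2% and Klf10 and Klf11 at 76.1%. The median was 69.3% over the 6 pairs of activators, 71.0% over the 6 pairs of Sin3-binding members and 60.9% over the 24 pairs between groups. Klf3 did not stand apart from the activators in this region. It had 67.9% to 72.8% identity with them, near the median of their own pairs, and 58.8% to 62.1% with the Sin3-binding members. These reference sequences bear on the counts, because reads from stretches that genes share cannot be placed with certainty. The longest run of identical bases between any pair of these coding transcripts was 26 bases on the same strand, between Klf6 and Klf7. Over all annotated transcripts and both strands, Klf13-201 shared words of 31 bases with 2 other members, and Klf10-204 and Klf3-203 each with 1. The second finger, 69 bases within 1 exon in each gene, is shown to let the likeness be seen. Capitals mark the 25 bases that are identical in all 9 members. Sequences are from the GENCODE M21 transcripts (mm10), each 5′ to 3′ on the strand of the gene.
Klf2 (chr8:72320761-72320829, plus strand): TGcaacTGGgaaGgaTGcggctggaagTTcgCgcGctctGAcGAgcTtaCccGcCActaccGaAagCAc
Klf4 (chr4:55528215-55528283, minus strand): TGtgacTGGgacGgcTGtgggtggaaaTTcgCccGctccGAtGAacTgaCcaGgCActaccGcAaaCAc
Klf6 (chr13:5866656-5866724, plus strand): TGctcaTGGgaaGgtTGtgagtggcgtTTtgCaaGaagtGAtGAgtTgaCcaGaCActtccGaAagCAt
Klf7 (chr1:64042352-64042420, minus strand): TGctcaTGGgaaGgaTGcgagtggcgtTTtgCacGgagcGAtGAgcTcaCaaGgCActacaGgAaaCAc
Klf3 (chr5:64828994-64829062, plus strand): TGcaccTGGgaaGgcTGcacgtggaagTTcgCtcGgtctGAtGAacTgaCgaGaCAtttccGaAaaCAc
Klf9 (chr19:23164700-23164768, plus strand): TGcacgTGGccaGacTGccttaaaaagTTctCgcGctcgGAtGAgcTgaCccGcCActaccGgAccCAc
Klf10 (chr15:38296079-38296147, minus strand): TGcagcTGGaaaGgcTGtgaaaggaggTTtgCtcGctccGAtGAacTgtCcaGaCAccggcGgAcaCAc
Klf11 (chr12:24660200-24660268, plus strand): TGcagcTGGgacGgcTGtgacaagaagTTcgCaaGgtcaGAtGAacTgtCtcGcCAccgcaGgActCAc
Klf13 (chr7:63891712-63891780, minus strand): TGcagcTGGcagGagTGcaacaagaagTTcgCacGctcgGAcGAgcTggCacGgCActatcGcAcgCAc

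Klf6 had the highest level of the family in the gene table of both libraries. Among the activators, Klf6 (ENSMUSG00000000078.7, chromosome 13, 5861482 to 5870394, mm10) had 288 TPM in replicate 1 and 280.5 in replicate 2, from 14231 and 21456 counts. The mean was 284 ± 5.13 TPM (n = 2), which placed it 116th and 93rd among protein-coding genes. It made up 73.2% and 76.1% of the summed TPM of the 9 members, a mean of 74.6%. In the alignment-free table described further on, that mean was 43.1%, and 73.7% without the transcript Klf10-204. Klf2 (ENSMUSG00000055148.7, chromosome 8, 72319033 to 72321656), which in endothelium and resting leukocytes is known for promoting quiescence, had 18.6 and 20.8 TPM from 414 and 795 counts. Klf7 (ENSMUSG00000025959.13, chromosome 1, 64029447 to 64122282), the closest relative of Klf6, had 9.43 and 13.5 TPM from 699 and 1142 counts. For both genes replicate 2 was the higher library in TPM. Klf4 (ENSMUSG00000003032.8, chromosome 4, 55527143 to 55532466), a factor of monocyte differentiation and of pluripotency, had 1.01 and 0.370 TPM from 39 and 16 counts. It was the lowest of the 9 in mean TPM. The activators together held 80.5% and 85.5% of the members' TPM, most of it Klf6.

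Of the repressor groups, the CtBP-binding Klf3 (ENSMUSG00000029178.14, chromosome 5, 64803388 to 64832901) had 28.1 and 17.9 TPM from 1338 and 1589.6 estimated counts, or 7.14% and 4.85% of the members' TPM. The Sin3-binding members held 12.3% and 9.65%. Their highest, Klf13 (ENSMUSG00000052040.10, chromosome 7, 63886351 to 63938915), known for driving late chemokine expression in T cells, had 35.6 and 25.4 TPM from 1367 and 1740 counts. Klf10 (ENSMUSG00000037465.10, chromosome 15, 38291463 to 38300706), known as the TGF-beta inducible early gene, had 10.1 and 9.02 TPM from 362 and 557 counts. Klf9 (ENSMUSG00000033863.2, chromosome 19, 23141226 to 23168134), a known target of glucocorticoid and thyroid hormone receptors, had 1.45 and 0.730 TPM from 85 and 72 counts. Klf11 (ENSMUSG00000020653.12, chromosome 12, 24651274 to 24662789), a relative of Klf10, had 1.30 and 0.470 TPM from 69 and 42 counts. Replicate 1 was the higher library in TPM for these repressors, as it was for Klf6, Klf4 and most genes, whose median log2 ratio is given with the comparison of the libraries.

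The order of the mean levels was Klf6, Klf13, Klf3, Klf2, Klf7, Klf10, Klf9, Klf11 and Klf4. The ranges of neighbours in this order did not overlap at 3 places. Klf6 was 9.33 times Klf13 in mean TPM, 8.09 times in replicate 1 and 11.1 times in replicate 2. Klf2 was 1.72 times Klf7, and Klf10 was 8.76 times Klf9. In the alignment-free table described further on, Klf7 was instead above Klf2 in both libraries, at 18.8 and 10.6 TPM against 10.8 and 4.40. At the other 5 places the gene-table ranges over both libraries overlapped, and the ratio within a library was then compared. Klf13 (30.5 ± 7.23 TPM) was above Klf3 (23.0 ± 7.22) in both libraries, by 1.27 and 1.42 times. Klf9 (1.09 ± 0.509) was above Klf11 (0.885 ± 0.587) by 1.12 and 1.55 times, and Klf11 above Klf4 (0.690 ± 0.453) by 1.29 and 1.27 times. The order of Klf9 and Klf11 depended on the estimate. By the deposited posterior mean TPM, Klf11 was above Klf9 in both libraries, at 2.01 and 0.87 against 1.47 and 0.78. It was also above Klf9 in the alignment-free table, at 3.77 and 0.556 TPM against 0.639 and 0.215. The order turned between the libraries for Klf3 against Klf2 (19.7 ± 1.61) and for Klf7 (11.5 ± 2.86) against Klf10 (9.55 ± 0.750). The plot of TPM by library shows these steps.

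**Figure D1:**
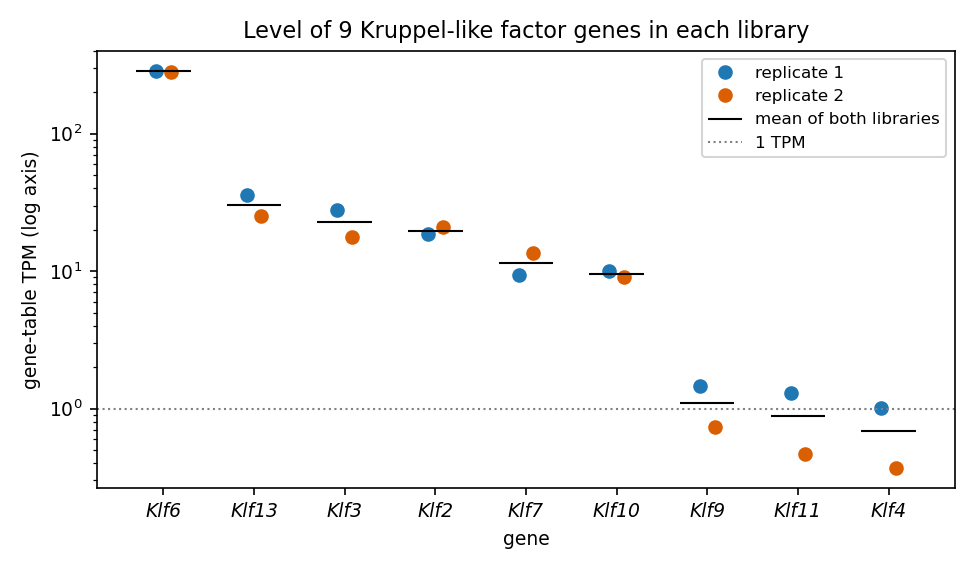
Gene-table TPM on a log axis for the 9 genes, 1 point per library, with the mean of both libraries as a bar and 1 TPM as a dotted line. Klf6 stands at 288 and 280.5 TPM, a middle set of 5 genes lies between 9.02 and 35.6, and Klf9, Klf11 and Klf4 lie above 1 TPM in replicate 1 and below it in replicate 2.

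At 1 TPM or more in both libraries, 6 of 9 members were detected, against 44.5% of protein-coding genes. Klf9, Klf11 and Klf4 each passed this level in replicate 1 alone, yet every member had at least 16 counts in each library. The median of mean log2(TPM + 1) was 3.62 over the 9 members, 0.67 over all protein-coding genes and 3.39 over the detected ones. The 6 detected members were also the 6 that passed a minimum of 5 TPM.

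The libraries were next compared with each other gene by gene, to see how far a member's level moved between replicates. The log2 ratio of TPM + 1, replicate 2 over replicate 1, had a median of -0.42 over the 14584 genes that had 10 or more counts in each library, and member ratios are given relative to it. Klf7 was at 0.90, Klf2 at 0.58, Klf6 at 0.39 and Klf10 at 0.28. Klf13, Klf9, Klf4, Klf3 and Klf11 lay between -0.05 and -0.22. Thus 4 of 9 members were above the median, where 50% of all genes lie by construction. No member was over 2-fold away, against 1.22% of genes above and 0.487% below that limit. For Klf4, Klf11 and Klf9, at 1.01, 1.30 and 1.45 TPM in replicate 1, the lower limit was out of reach. The added 1 TPM kept their ratios above it at any level in replicate 2. The sides depended on the scaling, since Klf3 and Klf13 were at 0.09 and 0.19 when counts were scaled by edgeR's TMM factors. Of the low genes, Klf4 was at -1.42 with TMM, Klf11 at -0.87 and Klf9 at -0.40. In the alignment-free table Klf10 was at -0.93. With a pseudocount of 0.1 TPM, Klf7 was at 1.05.

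**Figure D2:**
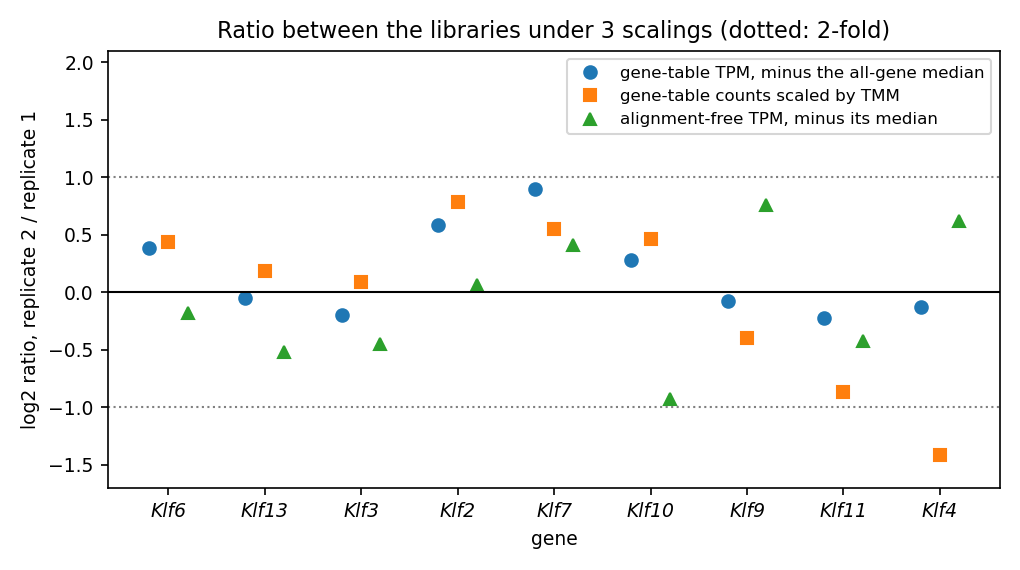
Log2 ratio of replicate 2 to replicate 1 for each gene under 3 scalings (circles, gene-table TPM + 1 minus the all-gene median; squares, TMM-scaled counts; triangles, alignment-free TPM + 1 minus its median), with dotted lines at 2-fold. Klf7 and Klf2 lie above 0 under all 3 scalings and Klf11 below it, while Klf6, Klf10, Klf13, Klf3, Klf9 and Klf4 change side in at least 1.

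Transcript models add detail that gene levels hide. The 9 members had 35 annotated transcripts, of which 26 are protein-coding and 5 retain an intron, in Klf3, Klf6 and Klf13. By share of TPM, the longest coding transcript led in 8 of 9 members. How often it leads over all genes was not computed, so this count is not a trait of the family. Klf13 was the exception. There the retained-intron model Klf13-203 took 56.9% and 50.8% of the gene's TPM in replicates 1 and 2, and the coding Klf13-201 took 38.5% and 41.5%. Klf13-203 is a single exon of 934 bases (chr7:63935399-63936332) that lies wholly within the intron of Klf13-201. By share of counts the order turned, with 14.6% and 12.8% for Klf13-203 and 84.8% and 86.2% for the 6396-base Klf13-201. TPM divides by length and so gives the short model more weight.

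Klf3 carried the largest retained-intron share of counts among the 3 members that have such a model. Its retained-intron models took 36.6% of counts in replicate 1 and 37.3% in replicate 2, a mean of 37.0% ± 0.483 (n = 2). Over all protein-coding genes these models took 15.5% ± 0.676 of counts, and the median over 6881 genes that have one was 17.4%. Klf3-203 held 328 and 349 counts and has 3285 of its 4016 bases outside the exons of the coding Klf3-201. Klf3-204 held 162 and 244 counts with 2653 of 2749 bases outside them. In the TPM of the gene, Klf3-201 took 42.8% and 47.6%, Klf3-203 22.5% and 22.2%, and Klf3-204 16.6% and 23.2%. The tables do not separate RNA with 1 intron kept from unspliced precursor.

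In Klf6 the coding transcript Klf6-201 took 88.4% and 79.2% of TPM and 98.0% and 96.1% of counts. The retained-intron model Klf6-202 took 10.2% and 19.9% of TPM, from 235 and 787 counts. Only 98 of its 799 bases lie outside the exons of Klf6-201, so most of its sequence is shared with it. The retained-intron share of counts of Klf6 was 1.65% and 3.67%, under that of Klf3. In the alignment-free table described further on it was 6.71% and 6.51%, against 44.3% and 41.6% for Klf3. The shares of these genes are not like measures, because the Klf3 models hold far more bases outside the exons of the coding transcript. Klf7 was split between the 7662-base Klf7-202, with 70.5% and 44.9% of TPM, and the 553-base Klf7-203, with 21.7% and 41.0%. Klf7-203 rested on 9.48 and 46.9 counts, and the authors' deposited TPM intervals for it, at a level not given in the sources used here, were 0.500 to 4.05 and 2.64 to 8.06. These intervals overlap. By counts Klf7-202 took 96.8% and 90.9%. Klf10-201 took 80.2% and 75.8% of the TPM of Klf10, and Klf4-201 took 100% and 56.5% of that of Klf4, the latter on 13.5 counts. Klf2 has 1 annotated transcript, and in Klf9 and Klf11 a single transcript took 100% of TPM.

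**Figure D3:**
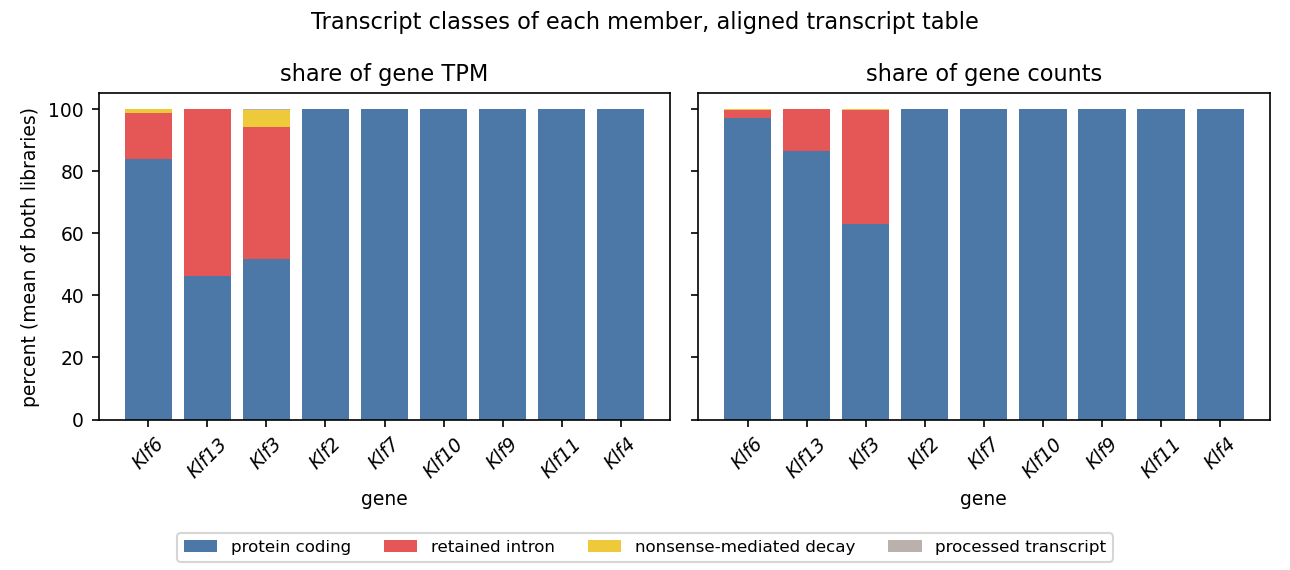
Percent of each gene's TPM (left) and counts (right) by annotated transcript class, as the mean of both libraries, in the aligned transcript table. Retained-intron models take 53.9% of TPM but 13.7% of counts in Klf13, and 42.3% and 37.0% in Klf3. The 6 genes that show coding transcripts alone have no annotated retained-intron model, so their share of 0 was set by the annotation.

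The authors also deposited a transcript table made directly from the reads without an alignment. It gave another picture for Klf10 and Klf11, and in TPM for Klf7 as well. Summed per gene, the ratio of alignment-free to gene-table counts had a median of 1.82 over 12362 genes in replicate 1 and 1.35 over 11645 genes in replicate 2. Klf2, Klf3, Klf6, Klf7, Klf9 and Klf13 had ratios within 2-fold of that median in both libraries. Klf10 had 2163 and 2177 alignment-free counts, ratios of 5.97 and 3.91, which are 3.29 and 2.90 times the median. Klf11 had 643 and 285 counts, 5.13 and 5.03 times the median ratio. Klf4 was at 1.27 and 2.17 times. So 2 of 9 members in replicate 1 and 3 of 9 in replicate 2 were over 2-fold above the median, against 12.1% and 7.88% of genes. None was over 2-fold below it, where 0.34% and 0.318% of genes lay. With alignment-free TPM scaled to the gene table by the median ratio, Klf10 had 439 and 270.0 TPM beside 341 and 353 for Klf6, so Klf10 exceeded Klf6 in replicate 1 and was below it in replicate 2. On the same scale Klf7 had 27.9 and 42.3 TPM in replicates 1 and 2, against 9.43 and 13.5 in the gene table.

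Most of the Klf10 excess sat in 1 short transcript. Klf10-204, annotated as protein-coding with 326 bases (chr15:38299874-38300706), had 1.00 and 1.08 aligned counts but 1615 and 1468 alignment-free counts in replicates 1 and 2. It took 98.0% and 95.4% of the alignment-free TPM of Klf10. The main transcript Klf10-201 had 313 and 449 aligned and 313 and 298 alignment-free counts, and Klf10-202 had 42.7 and 83.4 aligned and 193 and 304 alignment-free counts. Of the bases of Klf10-204, 178 lie outside Klf10-201. The coding part of Klf10-204 is shown because it holds a run of 33 A, in capitals (minus strand, chr15:38299874-38300594 with its introns left out).
Klf10-204 coding part: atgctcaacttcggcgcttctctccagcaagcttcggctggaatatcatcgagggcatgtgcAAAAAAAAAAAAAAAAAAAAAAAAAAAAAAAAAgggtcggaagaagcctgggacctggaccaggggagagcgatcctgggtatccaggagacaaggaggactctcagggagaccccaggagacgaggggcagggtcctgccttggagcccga
A word of 31 A occurs in transcripts of 163 other genes. Among 141767 transcripts in both tables, 1.64% had at least 100 alignment-free and under 10 aligned counts in both libraries, as Klf10-204 did. Among the 200 transcripts with an internal run of at least 31 A or T, 43 did, or 21.5%. Of transcripts under 10 aligned counts in both libraries, 43% of the 100 with such a run and 2.36% of all 98810 reached 100 alignment-free counts. Whether reads from this run gave the alignment-free counts of Klf10-204 was not tested.

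Klf11 differed in kind, because its excess lay on its main transcript. Klf11-201, of 4086 bases, had 69 and 42 aligned counts and 640 and 283 alignment-free counts. It shares 11 of its words of 31 bases with 7 other genes and its longest run of A is 5. Klf6-203, a nonsense-mediated decay model, had 49.7 and 52.8 aligned counts against 2162 and 3630 alignment-free. Klf7-203 had 9.48 and 46.9 against 234 and 494, which made it the leading Klf7 transcript by alignment-free TPM. Of the 9 member transcripts at 0 counts in both aligned libraries, 6 had counts in the alignment-free table. The leading transcript was the same in both tables for 7 of 9 members, all but Klf7 and Klf10. The same shares over all transcripts and all genes were not computed, so neither count is a trait of the family.

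**Figure D4:**
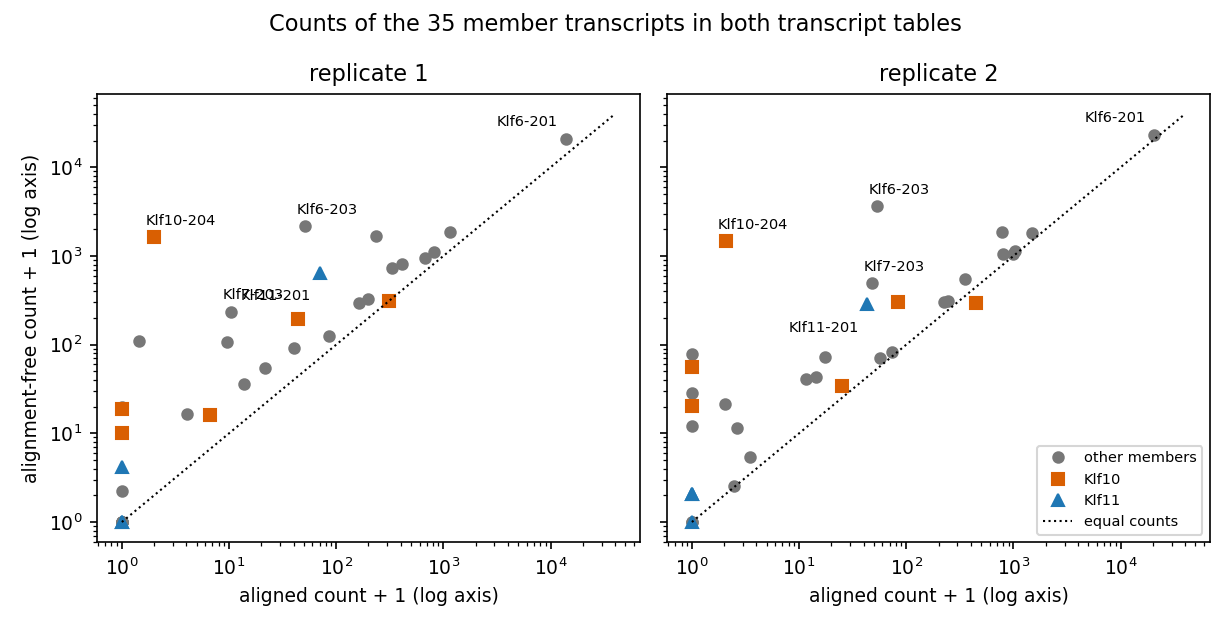
Counts + 1 of the 35 member transcripts in the aligned (x) and alignment-free (y) table, both axes log, 1 panel per library, with a dotted line at equal counts. Klf10-204 stands at about 1 aligned and 1615 or 1468 alignment-free counts, and Klf11-201, Klf6-203 and Klf7-203 also lie well above the line.

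Neighbouring genes may limit some of the counts. In the annotation 4 members are overlapped by another gene, and the share of all genes so overlapped was not computed. Klf3 overlaps Gm20033 on the opposite strand and C230096K16Rik on its own strand, which had 143 and 312 counts beside 1338 and 1589.6 for Klf3. Klf7-202 shares 3146 words of 31 bases with the opposite-strand Gm26649, which had 0 counts in both libraries. Gm13748, opposite to Klf7 over 12129 bases, had 0 and 4 aligned counts and 70 and 156 alignment-free counts. Klf13 holds Gm27252, with 26 and 37 counts, and E030018B13Rik, with 84 and 119, on the opposite strand within its span. Klf9 holds Mir1192 with 0 counts. C230096K16Rik, Gm27252, E030018B13Rik and Mir1192 lie between the annotated exons of these members and overlap none of them. Klf3-201 shares 375 words of 31 bases with Gm20033. Strand use in counting was not given in the sources used here. Reads from the stretches that Klf3 shares with Gm20033, or Klf7 with Gm26649, may therefore not have been told apart.

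Reference promoters of 8 members, all but Klf10, were matched by symbol in RefSeq (GRCm38.p6), each 300 bases from 250 before to 50 after the start site. Both strands were searched. The GC box GGGCGG, which Sp and Kruppel-like factors bind, was in 7 of 8 and in 35.7% of 32851 promoters, with Klf9 as the member without it. CACCC was in 5 of 8 and in 57.5% of all. A MEF2 site was in Klf2 alone and in 3.19% of promoters. MEF2 factors acting downstream of the kinase ERK5 are known activators of Klf2. TGANTCA was in Klf9 alone and in 7.81% of all. This pattern is wider than the AP-1 element, which has C or G at N. The Klf9 match has A there and so is not that element. The CArG box, the NF-kB site, TGACGTCA, TATAAA and GGGTGNGGC, whose first letters are CACCC on the other strand, were in 0 of 8, which says only that these letters are not in these windows. The 2 single matches are shown with capitals marking the motif, which starts at -118 in Klf2 and at -89 in Klf9 relative to the start site.
Klf2 promoter (chr8:72318919-72318978, plus strand): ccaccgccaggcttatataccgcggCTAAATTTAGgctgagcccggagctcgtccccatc
Klf9 promoter (chr19:23141112-23141168, plus strand): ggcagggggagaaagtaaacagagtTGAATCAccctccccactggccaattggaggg

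AU-rich elements in the 3′ untranslated region mark many short-lived mRNAs of early response genes. The element TATTTAT was in the longest coding transcript of 5 of 9 members, Klf2, Klf6, Klf7, Klf10 and Klf11, and in 28.0% of 20544 genes. It was in 38.4% of genes whose 3′ untranslated region has 1000 to 3000 bases, and those of the members ran from 737 in Klf2 to 6266 in Klf7. The core ATTTA, which TATTTAT contains, occurred at 0.582 per 1000 bases in Klf13 and at 2.87 in Klf7, with a median of 1.27 over genes. The first TATTTAT of Klf6, Klf2 and Klf10 is shown in capitals with its flanks.
Klf6 (chr13:5868491-5868517, plus strand): ctacgtctctTATTTATgccttgagga
Klf2 (chr8:72320989-72321015, plus strand): aacagactgcTATTTATtggaccttag
Klf10 (chr15:38294921-38294947, minus strand): agtgtcttttTATTTATaggagttttt

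Other genes of the pathway were taken from 4 lists. Of the other Sp and Kruppel-like family, 4 of 17 were detected, all of them Sp factors, against 44.5% of protein-coding genes. Sp3 had 34.0 and 22.6 TPM, Sp1 13.1 and 8.02, Sp4 3.27 and 2.94, and Sp2 2.63 and 2.50. These bind the same GC boxes and, for Sp1 and Sp3, are found in most cells. The median log2(TPM + 1) of this list was 0.18 ± 0.19 (n = 2). Klf16 had 1.25 and 0.940 TPM from 42 and 54 counts and was the highest Kruppel-like gene of this list. Klf12, at 11 and 3 counts in the gene table, had 10.04 and 1.90 TPM in the alignment-free table. Klf1, Klf5 and Klf17, known from erythroid, epithelial and germ or embryonic cells, had 0 to 0.110 TPM. Klf16, Klf12, Klf1, Klf5 and Klf17 lie outside the naming rule and were chosen after their values were seen.

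The second list holds corepressors and coactivators of the family. All 14 were detected at 1 TPM, against 44.5% of protein-coding genes, and 12 of 14 at 5 TPM, with a median of 4.32 ± 0.31. Ncor1, a nuclear receptor corepressor, had 114 and 80.1 TPM, the deacetylase gene Hdac1 77.5 and 68.2, and the acetyltransferase gene Ep300 56.7 and 30.8. Hdac2 at 7.29 and 3.42 and Sap30, a Sin3 complex subunit, at 2.51 and 2.59 were the lowest. All 16 genes upstream of the family or of its degradation were detected, with a median of 4.54 ± 0.31. Wwp1, a ubiquitin ligase that targets Klf2 and other members, had 161 and 92.7 TPM. Mef2c had 85.8 and 56.1 and Mef2a 75.5 and 58.5, while Srf had 5.30 and 5.96 and Foxo1, an activator of Klf2 in T cells, 2.30 and 1.53.

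Of 18 genes reported as targets of the family, 13 were detected, against 44.5% of protein-coding genes, with a median of 3.63 ± 0.46. Cd14, the lipopolysaccharide co-receptor gene, had 478 and 387 TPM, Cdkn1a, a cell cycle inhibitor gene, 364 and 388, and Tgfb1 128 and 124. Nos2, a nitric oxide synthase gene of activated macrophages, had 2 and 10 counts. Nos3, its endothelial relative, had 0 and 1, a level no higher than the 3 counts that a count of 0 allows. The median over all protein-coding genes on this scale was 0.67 and that over the detected ones was 3.39.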

How the data were processed

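Gene and transcript tables were used for each of 2 libraries. Expected counts and TPM per gene and per transcript, with each transcript's percent of its gene, were deposited by the authors from transcriptome alignments (mm10, GENCODE M21, per the deposited readme). Estimated counts and TPM per transcript in the alignment-free tables came straight from reads and an index, per the deposited readme. Quantifier names, strand use and interval level were not given in the sources used here.

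Levels are the deposited TPM. Detection means at least 1 TPM in both libraries. Ratios between libraries used TPM + 1, genes with at least 10 counts in both, and subtraction of the median. Rounded counts gave TMM factors (edgeR 4.0.16) and DESeq2 (1.42.0) size factors in R 4.3.3, with no test. Other steps ran in Python 3.11.15 with pandas 2.3.3. Protein sequences were not analysed here. Zinc fingers were located by translating coding transcripts.

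The 9 members, the 4 pathway lists and the 9 marker lists were chosen with earlier results of these data known. Named genes are all members, the detected Sp and Kruppel-like relatives, the 3 highest and 2 lowest of each other pathway list, and the highest gene of each marker list. The other detected markers and the rest of the endothelial list are named besides. With 1 group of 2 libraries no likeness of pattern was measured.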

Additional observations from a re-analysis of the deposited data

How the results depend on the processing

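In all, 42 results were recomputed under 216 alternative values. Of these, 159 stayed within the spread between the libraries (for counts, within 1.5 times, and for ratios, on the same side) and 57 did not. Leaving out replicate 1 moved 0 of 31 values, and leaving out replicate 2 also moved 0 of 31. For levels and shares this was fixed in advance, because each of 2 libraries always lies within the SD of their mean. Those values therefore say nothing about stability. Klf6 made up 74.6% ± 2.06 of the members' TPM, but 43.1% in the alignment-free table and 73.7% there without Klf10-204. No member was over 2-fold between the libraries, but 1 was with a pseudocount of 0.1 TPM (Klf7), 1 with TMM factors and 1 with DESeq2 size factors (Klf4 in both, the cause was not tested). With 1 TPM added, Klf4, Klf11 and Klf9 could not pass the lower limit at any level in replicate 2. At a minimum of 5 TPM, 2 and not 4 of the other Sp and Kruppel-like genes were detected, since Sp4 and Sp2 lie below it. Detected members ranged from 6 to 9, with 6 without replicate 1 and 9 without replicate 2, because Klf9, Klf11 and Klf4 were above 1 TPM in replicate 1 alone. The number of members led by their longest coding transcript ranged from 6 to 9, and members above the median ratio from 4 to 6. Of the member levels, 8 of 9 differed by more than the spread in the alignment-free table as deposited. TPM there is on another scale, with a median ratio to gene-table TPM of 0.672 in replicate 1 and 0.249 in replicate 2. When scaled by this median ratio, 5 of 9 differed. Klf10 had 181 TPM as deposited and 355 when scaled. Without mitochondrial genes and genes under 200 bases Klf6 had 409 TPM and Klf2 28.3. The alignment-free table scaled by the median ratio, that table without Klf10-204 and the share of alignment-free counts were chosen after seeing the data. No paired analysis was possible because both libraries belong to 1 group. Klf4, Klf11 and Klf9 rest on 16 to 85 counts, so their ratios are the least precise. These counts carry no molecular identifiers, so counting error alone understates the error.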
